A study of Mus musculus with 29 samples.

Results

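Genes of retinoid synthesis, binding and breakdown, 9 in all, were followed in mouse cells during neural differentiation: Aldh1a2, Aldh1a3, Dhrs3, Rbp4, Crabp1, Crabp2, Cyp26a1, Cyp26b1 and Rarb. They were chosen by name, as the transcript clusters of the array whose only annotated gene symbol is one of these 9, out of 30142 genes with such a cluster. Each of the 9 had a single cluster. RNA was measured on 29 Clariom D arrays (MTA 1.0), 1 per sample, and a level below is the deposited log2 value (SST-RMA) of a cluster. The cells came from a line labelled BERKO, for a knockout of estrogen receptor beta (ERb, gene Esr2), and from a wild-type line (WT), both grown without feeder cells. The 4 stages were embryonic stem cells in medium with LIF (mESC), neural precursors expanded with FGFb (NPC), midbrain neural precursors kept with FGFb, FGF8b, Shh and ascorbic acid (mDPC), and cells matured toward midbrain neurons (MN), a name that stands here for the stage. At NPC and mDPC the cells received LY3201, an agonist selective for ERb, at 0.5 nM, or DMSO as vehicle (called untreated) for 4 days. MN samples were labelled as LY3201 at the same dose or untreated, with the length of treatment at that stage not given in the sources used here. The 14 groups held 2 arrays each, except for 3 in untreated BERKO MN, and the stem cells had no LY3201 groups. The labels' growth media list no retinoic acid among the additions.

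Retinoic acid is made from vitamin A in consecutive oxidations. Retinol, which Rbp4 carries in blood plasma, is oxidised reversibly to retinal by dehydrogenases such as Rdh10, and Dhrs3 runs the reverse step. Aldh1a2 and Aldh1a3 oxidise retinal irreversibly to retinoic acid. Inside the cell, Crabp1 and Crabp2 bind retinoic acid, and Crabp2 is known to deliver it to nuclear receptors. Cyp26a1 and Cyp26b1 are cytochrome P450 enzymes that hydroxylate it and so clear it. Rarb is one of the nuclear receptors and is itself a textbook retinoic acid target. In the embryo, local synthesis and breakdown pattern the hindbrain and spinal cord, and the meninges are a known source of retinoic acid for the developing forebrain.

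The promoters of Rarb and Cyp26a1 are textbook cases of control by retinoic acid, and they are shown with that of Cyp26b1, the member with the widest change between genotypes. The sequences are the 250 bases before the RefSeq start (GRCm38.p6), 5′ to 3′ on the gene's strand. Capitals mark a direct repeat of the receptor's core motif with a spacer of 5 between hexamers, searched on both strands as GGTCA or GTTCA, then NNNNNN, then GGTCA or GTTCA. The windows searched, of 300 bases each, were chr14:16575427-16575726 on the minus strand for Rarb, chr19:37697558-37697857 on the plus strand for Cyp26a1 and chr6:84593761-84594060 on the minus strand for Cyp26b1.
Rarb: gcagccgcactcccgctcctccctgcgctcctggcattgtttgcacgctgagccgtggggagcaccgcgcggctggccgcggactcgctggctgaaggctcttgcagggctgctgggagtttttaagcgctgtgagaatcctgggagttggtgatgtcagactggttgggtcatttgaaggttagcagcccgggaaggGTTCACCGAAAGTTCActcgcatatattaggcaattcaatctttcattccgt
Cyp26a1: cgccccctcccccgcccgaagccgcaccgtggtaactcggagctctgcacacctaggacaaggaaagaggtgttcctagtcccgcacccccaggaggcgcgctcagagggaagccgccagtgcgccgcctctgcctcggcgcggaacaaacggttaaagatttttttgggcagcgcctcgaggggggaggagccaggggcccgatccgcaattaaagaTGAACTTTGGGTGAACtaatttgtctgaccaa
Cyp26b1: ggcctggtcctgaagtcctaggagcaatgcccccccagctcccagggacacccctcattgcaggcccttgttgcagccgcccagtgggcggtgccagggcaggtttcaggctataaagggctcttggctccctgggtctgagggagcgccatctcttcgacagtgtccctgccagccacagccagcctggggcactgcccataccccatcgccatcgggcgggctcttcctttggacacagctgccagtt
In Rarb the repeat ran from -52 to -37 before the start on the gene's own strand, as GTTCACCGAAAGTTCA. In Cyp26a1 it ran from -32 to -17 on the opposite strand, where it reads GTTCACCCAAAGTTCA. These letters were not in the Cyp26b1 window. The promoter table held 10 promoters for 7 of the 9 genes, and 2 of the 10 had the repeat, against 81 of 32851 promoters in all (0.247%). Those 2 are the textbook cases named above, so the count is no result about the genes as a set. The same repeat with a spacer of 2 was in 131 promoters (0.399%) and in none of the 10. A match describes the sequence and is not a measured binding site.

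Most of the 9 genes had low signals. Per array, the median of the 5222 negative controls lay between 3.747 and 4.245 and their 95th percentile between 6.632 and 7.661. Of the 9 genes, 7 never passed that percentile, Cyp26b1 passed it in 4 arrays and Crabp1 in 1 array, so most levels below were not clearly told from background. Tests covered the 22063 genes whose value lay above the array's own median over clusters in 2 or more arrays, among them 8 of the 9. Aldh1a3 passed through 9 arrays, which were all those of NPC and BERKO+LY3201 MN replicate 2. Crabp2 passed through 5, which were all those of mESC and WT+LY3201 MN replicate 2. The steps of Aldh1a3 into and out of NPC, and of Crabp2 from mESC, were thus tested only because the gene was high at that stage. They are read as descriptions. Replicates of a group correlated with Pearson r of 0.9944 to 0.9985 over genes. The design text calls the replicates biological, but the 2 arrays of BERKO mESC share a number in their titles, as do the 2 of WT+LY3201 NPC, and each pair may come from 1 culture. The p-values then measure the spread between these samples, which may be technical. Esr2 itself read 3.80 to 4.46 in the 15 arrays labelled BERKO and 3.21 to 3.47 in the 14 labelled WT, against the direction of the label, and all of these levels were low. BERKO and WT are therefore the labels as given, as is each direction between them. The deleted part of Esr2 and the number of clones are not given in the sources used here. Markers of dopaminergic midbrain neurons, a list of 8 with Th and Slc6a3, stayed below the 95th percentile of the negative controls in every array. Comparisons across many genes used limma, with Benjamini-Hochberg adjustment over the 22063 genes, and a change is said to have passed where the adjusted p was under 0.05.

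**Figure D1:**
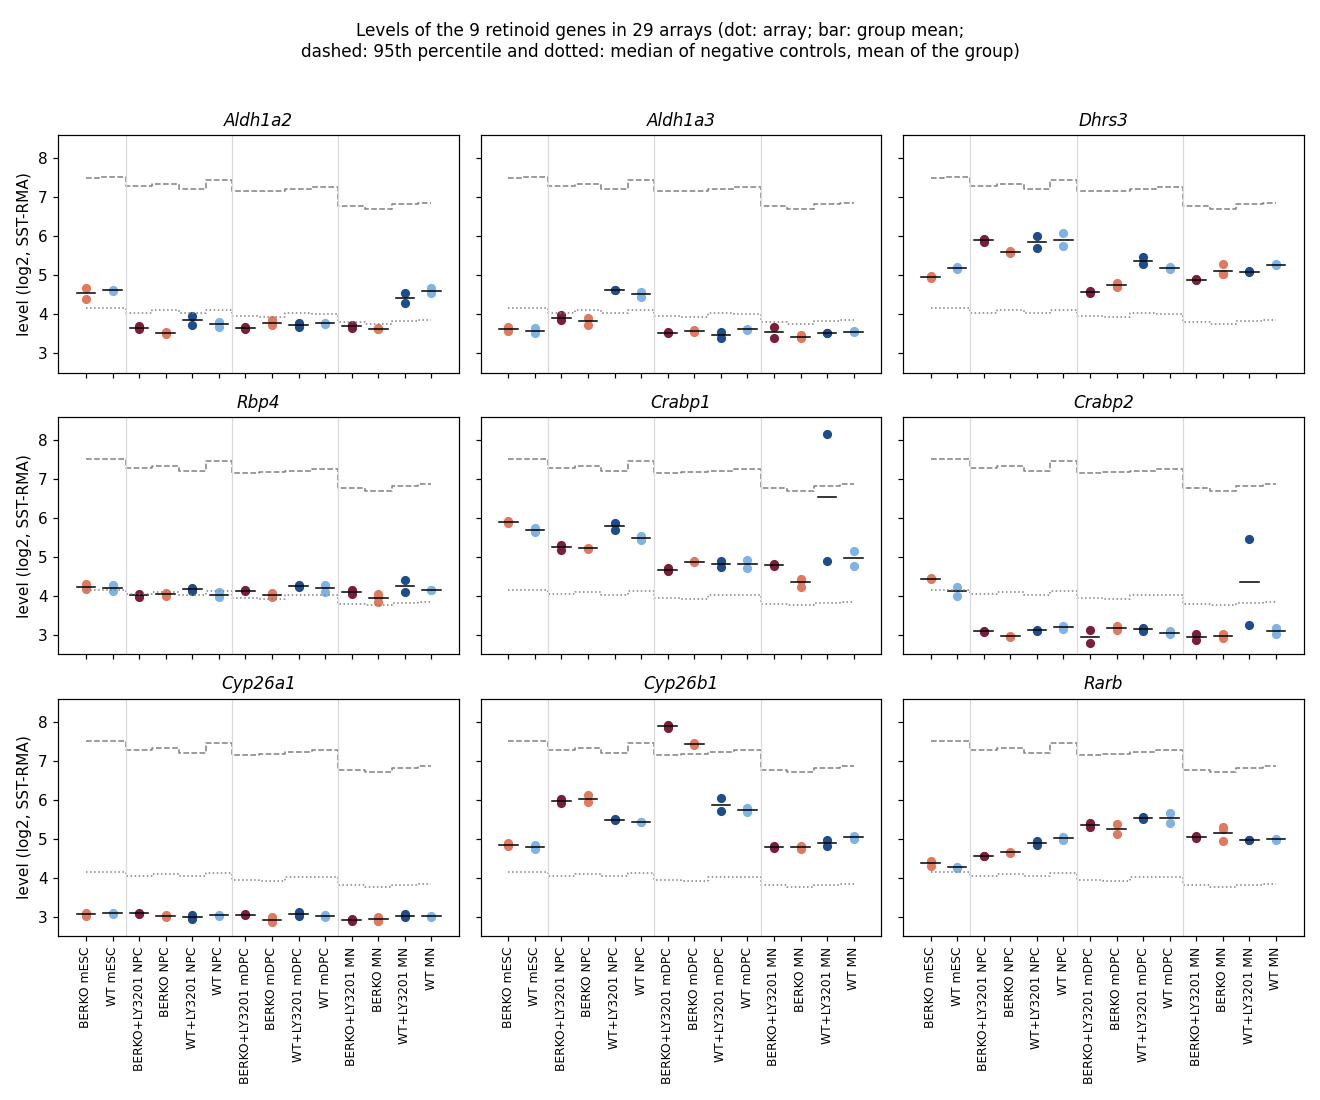
Levels of the 9 genes (log2) in 29 arrays, by stage and group. Dots are arrays and bars are group means. The dashed line is the 95th percentile and the dotted line the median of the negative controls, averaged over the group's arrays. Cyp26b1 reaches 7.40 to 7.93 in the 4 BERKO mDPC arrays, above the dashed line, and 1 WT+LY3201 MN array stands apart for Crabp1 (8.17) and Crabp2 (5.45).

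Between genotypes, the breakdown enzyme Cyp26b1 was higher and the synthesis enzyme Aldh1a3 lower in BERKO NPC than in WT NPC. Cyp26b1 was again higher, and Dhrs3 lower, in BERKO mDPC, and Aldh1a2 was lower in BERKO MN. In untreated mESC, 0 of 8 genes passed with limma, where 4.21% of all tested genes passed (1.68% higher and 2.53% lower in BERKO). There, 0 had an unadjusted p under 0.05, a threshold at which the share of all tested genes was not counted. In untreated NPC, 1 passed as higher in BERKO (Cyp26b1) and 2 as lower (Aldh1a3 and Rarb), where 15.7% of all tested genes passed (10.6% higher and 5.08% lower). In untreated mDPC, 1 was higher (Cyp26b1) and 1 lower (Dhrs3), where 13.8% passed (8.51% higher and 5.32% lower). In untreated MN, 2 were lower (Aldh1a2 and Cyp26b1), where 20.8% passed (13.5% higher and 7.31% lower). With LY3201 in NPC, Cyp26b1 was higher and Aldh1a3 lower, where 10.4% passed (4.56% higher and 5.81% lower). With LY3201 in mDPC, Cyp26b1 was higher and Dhrs3 lower, where 15.3% passed (7.23% higher and 8.1% lower). With LY3201 in MN, 3 were lower (Aldh1a2, Crabp1 and Crabp2), where 19.6% passed (9.01% higher and 10.6% lower). The median difference of the 8 genes was -0.25 in untreated NPC, -0.02 in untreated mDPC and -0.17 in untreated MN, against 0.03, 0.02 and 0.01 over all tested genes. With 8 genes, 2 or 3 calls lie near these backgrounds, and the counts are no result about the genes as a set.

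**Figure D2:**
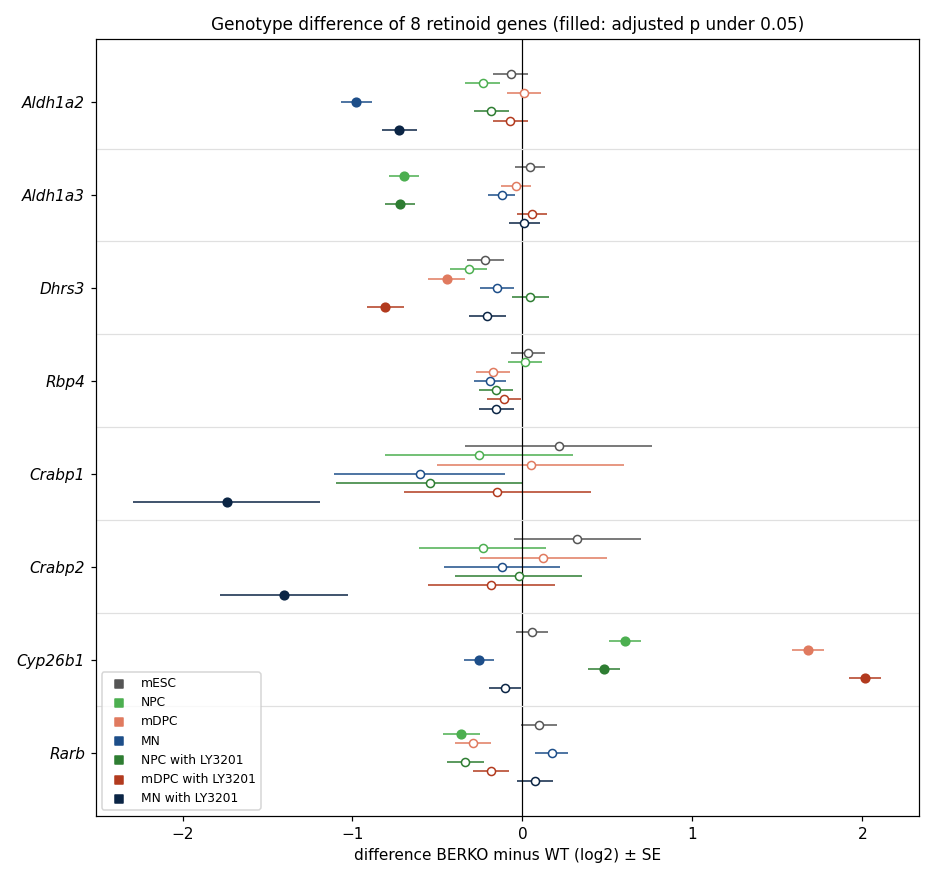
Differences BERKO minus WT (log2) ± SE of the 8 tested genes at each stage, untreated and with LY3201. Filled dots have an adjusted p under 0.05 with limma. Cyp26b1 lies at 1.68 in untreated mDPC and 2.02 in mDPC with LY3201, while Aldh1a3 lies near -0.7 in both NPC comparisons.

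Among the breakdown enzymes, Cyp26b1 gave the widest difference between genotypes. In mESC it read 4.89 and 4.81 in BERKO, against 4.74 and 4.85 in WT. In NPC it read 6.02 and 5.91 in BERKO+LY3201 and 6.12 and 5.94 in BERKO, against 5.47 and 5.51 in WT+LY3201 and 5.42 and 5.43 in WT. At this stage every BERKO array lay above every WT array, and the groups of a genotype with and without LY3201 differed little. In mDPC it read 7.93 and 7.85 in BERKO+LY3201 and 7.40 and 7.45 in BERKO, against 6.05 and 5.71 in WT+LY3201 and 5.69 and 5.79 in WT. The genotypes were thus further apart here, and these 4 BERKO arrays were the only ones of the 29 in which Cyp26b1 exceeded the 95th percentile of the negative controls. In MN it read 4.82 and 4.77 in BERKO+LY3201 and 4.74, 4.78 and 4.81 in BERKO, against 4.82 and 4.97 in WT+LY3201 and 5.0 and 5.07 in WT. In BERKO MN the gene overlapped with the stem cells, while the untreated WT MN arrays lay slightly above them.

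The genotype difference of Cyp26b1 was 0.05 in mESC. It was 0.60 ± 0.09 (SE) in untreated NPC (limma, adjusted p = 0.000147) and 0.48 ± 0.09 in NPC with LY3201 (adjusted p = 0.00186). In mDPC it was 1.68 ± 0.09 untreated (adjusted p = 2.06e-10) and 2.02 ± 0.09 with LY3201 (adjusted p = 1.42e-11). In untreated MN the sign was the opposite, at -0.26 ± 0.09 (adjusted p = 0.0407), and this small change lost its call in 11 of 13 alternative analyses, with an adjusted p of up to 0.252. As a fold, the measured means put BERKO over WT at 3.20 in untreated mDPC and 4.05 with LY3201. The WT signals were below the 95th percentile of the negative controls, and set against that percentile the difference was at least 1.11-fold untreated and at least 1.6-fold with LY3201. The order of the 14 group means ran from BERKO+LY3201 mDPC (7.89) and BERKO mDPC (7.42) through BERKO NPC (6.03), WT+LY3201 mDPC (5.88), WT mDPC (5.74) and WT NPC (5.43) to BERKO MN (4.78). In that order 6 of 13 neighbouring groups had arrays that did not overlap, and BERKO NPC, BERKO+LY3201 NPC and WT+LY3201 mDPC were not set apart by their spread.

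Cell type markers moved with genotype at mDPC. The mean level of 6 oligodendrocyte markers was 6.24 to 6.29 in BERKO+LY3201 mDPC and 6.0 to 6.15 in BERKO mDPC, against 5.26 to 5.34 in WT+LY3201 mDPC and 5.21 to 5.23 in WT mDPC, with 3 of the 6 tested markers higher in untreated BERKO. At most 2 of the 6 were above the 95th percentile of the negative controls in these arrays. The mean of 8 neuron markers was 7.41 to 7.46 in BERKO+LY3201 mDPC and 7.34 to 7.40 in BERKO mDPC, against 8.08 in WT+LY3201 mDPC and 7.92 in WT mDPC, with 2 of 8 lower in untreated BERKO. Single markers of other lists, named here after their values were seen, also differed. The astrocyte filament gene Gfap averaged 13.86 in BERKO+LY3201 mDPC and 13.30 in BERKO mDPC, against 16.48 in WT+LY3201 mDPC and 16.53 in WT mDPC, although 3 of the 7 astrocyte markers were higher and 1 lower in untreated BERKO. The progenitor gene Nes averaged 8.26 in BERKO+LY3201 mDPC and 7.91 in BERKO mDPC, against 9.93 in WT+LY3201 mDPC and 9.28 in WT mDPC, with 1 of 7 progenitor markers higher and 2 lower. Meningeal and mesenchymal markers, given below, had a lower mean in BERKO mDPC as well, with at most 1 of 9 above the percentile. The part of all these markers in the Cyp26b1 difference was not tested. In such bulk samples, fewer cells of a type and less RNA per cell cannot be told apart.

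The tested genes whose 14 group means ran most like those of Cyp26b1 were Galnt14 (Pearson r = 0.971), Kif21b (r = 0.958) and St6gal2 (r = 0.949). Galnt14 encodes an enzyme that starts O-linked glycosylation, Kif21b a kinesin motor and St6gal2 a sialyltransferase. Galnt14 averaged 7.25 in BERKO mDPC, against 5.28 in WT mDPC. Kif21b averaged 9.73 in BERKO mDPC, against 8.39 in WT mDPC, and was above the background level in both. These genes were picked from 22063 for their likeness, and the 14 means share stages and arrays, so the correlations are descriptions. Cyp26a1, the other breakdown enzyme, read between 2.85 and 3.13 over all 29 arrays, below the median of the negative controls in each. It did not pass the filter and was not tested, and its groups overlapped throughout their order.

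Of the synthesis enzymes, Aldh1a3 was raised in WT NPC. It read 3.84 and 3.97 in BERKO+LY3201 NPC and 3.72 and 3.90 in BERKO NPC, against 4.63 and 4.61 in WT+LY3201 NPC and 4.45 and 4.57 in WT NPC. The 4 WT NPC arrays were the only ones of the 29 above the median of their negative controls, and they did not overlap with the BERKO arrays. At the other stages the gene lay between 3.38 and 3.67. The genotype difference was -0.70 ± 0.09 in untreated NPC (limma, adjusted p = 1.55e-05) and -0.72 ± 0.09 with LY3201 (adjusted p = 1.23e-05). All of these levels were below the 95th percentile of the negative controls, so no fold is given for Aldh1a3.

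Aldh1a2 was high in stem cells and, among later cells, in WT MN. It read 4.40 and 4.68 in BERKO mESC, against 4.63 and 4.59 in WT mESC. In NPC and mDPC it lay between 3.48 and 3.96. In MN it read 3.73 and 3.64 in BERKO+LY3201 and 3.62, 3.64 and 3.61 in BERKO, against 4.55 and 4.28 in WT+LY3201 and 4.54 and 4.66 in WT. The WT arrays of MN were thus back near the stem cell level, and the BERKO arrays were not. The difference was -0.98 ± 0.09 in untreated MN (limma, adjusted p = 2.16e-07) and -0.73 ± 0.10 with LY3201 (adjusted p = 3.98e-05). As for Aldh1a3, no array was above the 95th percentile of the negative controls.

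Markers of meningeal and mesenchymal cells, a list of 9 with collagens, Dcn and Lum, averaged higher in WT at NPC, mDPC and MN. Their mean level in NPC was 5.43 to 5.51 in BERKO+LY3201 and 5.26 to 5.34 in BERKO, against 7.32 to 7.37 in WT+LY3201 and 7.21 to 7.28 in WT. In MN it was 4.68 to 4.86 in BERKO+LY3201 and 4.61 to 4.74 in BERKO, against 6.60 to 7.15 in WT+LY3201 and 6.55 to 6.60 in WT. In mDPC it was 4.65 to 4.72 in BERKO+LY3201 and 4.75 to 4.81 in BERKO, against 5.22 to 5.29 in WT+LY3201 and 5.31 to 5.35 in WT, a stage at which neither Aldh1a2 (adjusted p = 0.977 with limma, untreated) nor Aldh1a3 (adjusted p = 0.847) passed. Of the 9 markers, 6 were lower in untreated BERKO NPC than in WT NPC, and 6 were lower and 1 higher in untreated BERKO MN than in WT MN. Foxc1, also on the list, went against the list mean at MN, with 7.36 in BERKO MN and 6.57 in WT MN. It was above the 95th percentile of the negative controls in all 3 BERKO MN arrays and in 0 WT MN arrays. Of the 9, 4 were above the 95th percentile of the negative controls in each WT NPC array, and 0 in each BERKO NPC array. In mDPC it was 1 in each WT array and 0 in each BERKO array, so the difference there lies mostly in signals near background. In mESC, where Aldh1a2 was as high as in WT MN, the list averaged 4.16 to 4.25 in BERKO and 4.20 to 4.22 in WT. In WT NPC, where the list was highest, Aldh1a2 read 3.68 to 3.96. The part of these markers in the Aldh1a2 and Aldh1a3 differences was not tested.

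Dhrs3, the enzyme that returns retinal to retinol, was highest in NPC and lower in BERKO mDPC than in WT mDPC. In NPC it read 5.86 and 5.94 in BERKO+LY3201 and 5.63 and 5.56 in BERKO, against 6.0 and 5.71 in WT+LY3201 and 6.08 and 5.75 in WT. In mDPC it read 4.59 and 4.54 in BERKO+LY3201 and 4.79 and 4.70 in BERKO, against 5.46 and 5.29 in WT+LY3201 and 5.22 and 5.15 in WT. All 4 BERKO arrays of mDPC lay below all 4 WT arrays, while in NPC the genotypes overlapped with LY3201. The difference in mDPC was -0.45 ± 0.11 untreated (limma, adjusted p = 0.00798) and -0.81 ± 0.11 with LY3201 (adjusted p = 2.2e-05). In untreated NPC it was -0.32 ± 0.11 and missed the threshold (adjusted p = 0.058). The untreated mDPC call was lost without WT mDPC replicate 1 (adjusted p = 0.0652) or BERKO mDPC replicate 2 (adjusted p = 0.069).

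Of the carriers and binding proteins, Rbp4 was flat, between 3.85 and 4.40 over all arrays, and no pair of neighbours in the order of its groups was set apart. Crabp1 read 5.93 and 5.88 in BERKO mESC, against 5.75 and 5.63 in WT mESC. It lay between 5.17 and 5.88 in NPC and between 4.63 and 4.92 in mDPC. In MN it read 4.82 and 4.76 in BERKO+LY3201 and 4.44, 4.41 and 4.23 in BERKO, against 4.90 and 8.17 in WT+LY3201 and 4.78 and 5.15 in WT. Crabp2 read 4.43 and 4.45 in BERKO mESC, against 4.00 and 4.23 in WT mESC, and between 2.79 and 3.24 in NPC and mDPC. In MN it read 2.88 and 3.02 in BERKO+LY3201 and 3.03, 2.99 and 2.92 in BERKO, against 3.25 and 5.45 in WT+LY3201 and 3.03 and 3.17 in WT. For both genes replicate 2 of WT+LY3201 MN stood far above its partner and above the rest of the MN arrays.

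That array decided the Crabp results in MN. The genotype difference with LY3201 was -1.74 ± 0.55 for Crabp1 (limma, adjusted p = 0.0324) and -1.40 ± 0.38 for Crabp2 (adjusted p = 0.0125). Without replicate 2 of WT+LY3201 MN it was -0.11 for Crabp1 (adjusted p = 0.712) and -0.31 for Crabp2 (adjusted p = 0.127). Both calls were also lost without either BERKO+LY3201 MN array, with adjusted p between 0.102 and 0.129 for Crabp1 and between 0.0526 and 0.07 for Crabp2. Without replicate 1 of WT+LY3201 MN the differences were -3.37 for Crabp1 and -2.5 for Crabp2. The 2 arrays of this group differed by 3.27 for Crabp1 and by 2.19 for Crabp2, the third and the 11th widest differences, in either direction, of 15490 tested named genes. Above Crabp1 stood Car3, a carbonic anhydrase, at 12.98 in replicate 2 and 7.57 in replicate 1, and Slc17a6, the vesicular glutamate transporter of excitatory neurons, at 6.61 and 2.98. The mean of 8 neuron markers was 8.97 in replicate 2 and 8.03 in replicate 1, and that of the 9 meningeal and mesenchymal markers 7.15 and 6.60. Neuron markers also differed between the WT MN arrays, with means of 8.27 and 9.96, where Crabp1 read 4.78 and 5.15. The part of these cell types in the Crabp levels was not tested. The fit takes 1 spread per gene over all groups, so this pair also enters the SE of Crabp1 and Crabp2 at other stages. Fitted to the compared groups alone, Crabp1 gained several calls with limma. Among them were -0.68 from mESC to NPC in BERKO (adjusted p = 0.0018) and -0.65 from NPC to mDPC in WT (adjusted p = 0.00619). In that fit the Crabp1 genotype call in MN with LY3201 was lost (adjusted p = 0.354).

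**Figure D3:**
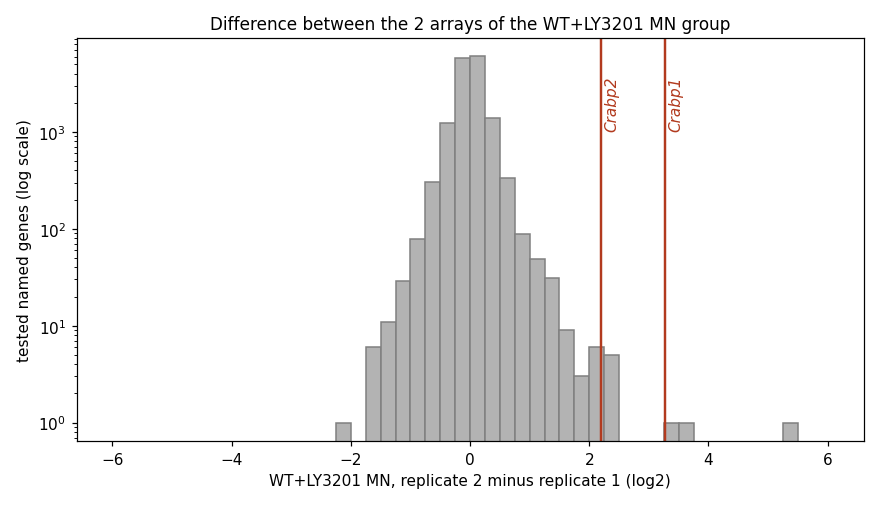
Histogram of the difference between the 2 WT+LY3201 MN arrays, replicate 2 minus replicate 1 (log2), over 15490 tested named genes, with a log scale for the number of genes. Red lines mark Crabp1 at 3.27 and Crabp2 at 2.19. There are 14 genes above 2 and 1 below -2.

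The receptor gene Rarb was lowest in mESC, and in WT it was highest in mDPC. In BERKO the gene overlapped between mDPC and MN. It read 4.30 and 4.43 in BERKO mESC, against 4.28 and 4.25 in WT mESC. In NPC it read 4.57 and 4.55 in BERKO+LY3201 and 4.67 and 4.63 in BERKO, against 4.85 and 4.94 in WT+LY3201 and 4.97 and 5.05 in WT. In mDPC it read 5.40 and 5.29 in BERKO+LY3201 and 5.11 and 5.38 in BERKO, against 5.55 and 5.51 in WT+LY3201 and 5.65 and 5.41 in WT. The BERKO arrays lay below the WT arrays at both of these stages, though at mDPC by little. In MN it lay between 4.94 and 5.30 in BERKO and between 4.97 and 4.99 in WT, and the genotypes overlapped. The difference was -0.36 ± 0.11 in untreated NPC (limma, adjusted p = 0.0276) and -0.34 ± 0.11 with LY3201 (adjusted p = 0.0532). The first of these was lost without any 1 of the 4 arrays, with adjusted p between 0.0755 and 0.157.

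LY3201 was set against vehicle within each genotype and stage to ask whether the agonist moved these genes and whether any effect depended on the BERKO label. Of the 8 genes, 0 passed in any of these 6 comparisons with limma. The shares of all tested genes that passed were 0%, 0.113% and 0.344% in BERKO NPC, mDPC and MN, and 0.00453%, 0.0635% and 1.83% in WT NPC, mDPC and MN. At an unadjusted p under 0.05 there were 1, 1 and 1 in BERKO NPC, mDPC and MN, and 0, 0 and 2 in WT NPC, mDPC and MN. The share of all tested genes at that threshold was not counted, so these numbers are not read as a result. The lowest adjusted p was that of Cyp26b1 in BERKO mDPC, where LY3201 cells averaged 7.89 and untreated cells 7.42, a difference of 0.47 ± 0.09 (adjusted p = 0.0551). The arrays of these groups did not overlap, but neither did they for any other tested member except Rarb. The share of all tested genes without overlap was not counted, so this is not read as a result. Over the alternatives the adjusted p of Cyp26b1 ran between 0.0434, with a stricter filter at the 75th percentile, and 0.599, with a fit to the compared groups alone. In WT mDPC the same gene averaged 5.88 with LY3201 and 5.74 untreated. The difference between these effects was 0.34 ± 0.13 (adjusted p = 0.517).

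Dhrs3 averaged 5.90 in BERKO+LY3201 NPC and 5.60 in BERKO NPC, a difference of 0.30 ± 0.11 (limma, adjusted p = 0.455). In WT MN, Crabp1 differed by 1.57 ± 0.55 (adjusted p = 0.173) and Crabp2 by 1.25 ± 0.38 (adjusted p = 0.102). Both rest on replicate 2 of WT+LY3201 MN, and without it the differences were -0.07 for Crabp1 and 0.15 for Crabp2. When the LY3201 effect in BERKO was set against that in WT, 0 of 8 passed at NPC, mDPC and MN, where 0.499%, 0% and 0.63% of all tested genes did. At an unadjusted p under 0.05 there were 1, 2 and 1, again with no share of all tested genes counted at that threshold.

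**Figure D4:**
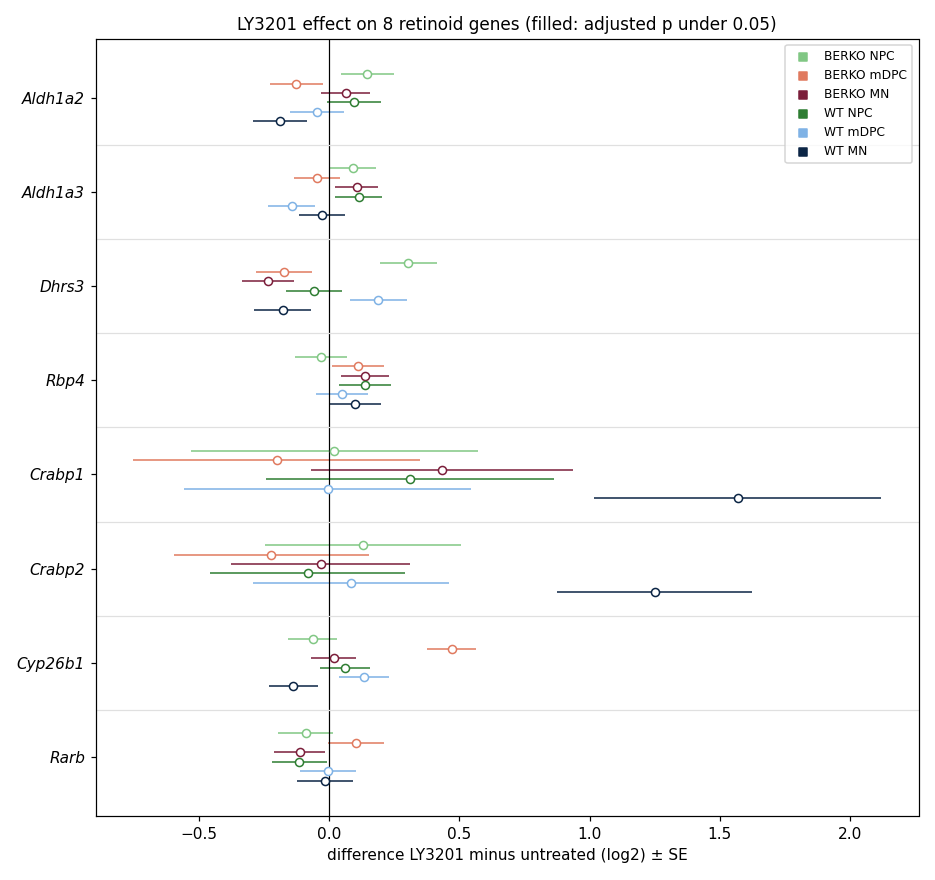
Differences LY3201 minus untreated (log2) ± SE of the 8 tested genes in each genotype and stage. All dots are open, since none had an adjusted p under 0.05. Cyp26b1 in BERKO mDPC lies at 0.47, and Crabp1 and Crabp2 in WT MN lie at 1.57 and 1.25 with wide errors.

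Across the stages of untreated cells, most of the 8 genes moved on leaving the stem cell state, but so did most genes on the array. From mESC to NPC, 3 rose and 2 fell in BERKO, where 63.5% of all tested genes passed (27.7% higher and 35.9% lower), and 4 rose and 2 fell in WT, where 62.9% passed (27.9% higher and 35% lower). Aldh1a2 fell by 1.03 ± 0.10 in BERKO (limma, adjusted p = 2.68e-08) and by 0.87 ± 0.10 in WT (adjusted p = 3.2e-07). Crabp2 was tested because of its mESC level, and its NPC arrays lay below the median of the negative controls. Crabp2 fell by 1.48 ± 0.38 in BERKO (adjusted p = 0.00189) and by 0.92 ± 0.38 in WT (adjusted p = 0.0402), a WT call that was lost in 8 of 11 alternatives with an adjusted p of up to 0.161. Dhrs3, Rarb and Cyp26b1 rose in both genotypes, the BERKO rise of Rarb being lost in 4 of 12 alternatives, and Cyp26b1 by 1.18 ± 0.09 in BERKO and 0.63 ± 0.09 in WT. Aldh1a3, tested because of its NPC level, rose by 0.93 ± 0.09 in WT, and its BERKO step differed from the WT step by -0.74 ± 0.13. The Aldh1a3 and Crabp2 steps are in the counts given here but are read as descriptions. For Cyp26b1 the steps differed by 0.55 ± 0.13 (adjusted p = 0.0116), a call lost without WT mESC replicate 2 (adjusted p = 0.0545) or BERKO NPC replicate 1 (adjusted p = 0.0671). At this step 2 of 8 differences between genotypes passed, where 9.6% of all tested genes passed (6.35% higher and 3.25% lower).

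From NPC to mDPC, 3 rose and 2 fell in BERKO, where 35.4% of all tested genes passed (16.5% higher and 18.9% lower), and 2 rose and 2 fell in WT, where 30.4% passed (14.6% higher and 15.8% lower). Rarb rose by 0.59 ± 0.11 in BERKO and 0.52 ± 0.11 in WT, and Dhrs3 fell by 0.86 ± 0.11 in BERKO and by 0.73 ± 0.11 in WT. Cyp26b1 rose by 1.39 ± 0.09 in BERKO (limma, adjusted p = 5.46e-10) and 0.32 ± 0.09 in WT (adjusted p = 0.0146), a difference between steps of 1.08 ± 0.13 (adjusted p = 2.55e-05). The WT call was lost without WT NPC replicate 1 (adjusted p = 0.0701), WT NPC replicate 2 (adjusted p = 0.0612) or WT mDPC replicate 2 (adjusted p = 0.114). Aldh1a3 fell by 0.24 ± 0.09 in BERKO, a call lost in 6 of 11 alternatives, and by 0.90 ± 0.09 in WT, a difference of 0.66 ± 0.13. Cyp26b1 and Aldh1a3 were the 2 of 8 that passed for the difference, where 8.68% of all tested genes did (3.68% higher and 4.99% lower). The Aldh1a3 steps out of NPC are counted here but are again read as descriptions.

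From mDPC to MN, 1 rose and 1 fell in BERKO, where 50.9% of all tested genes passed (20.1% higher and 30.8% lower), and 1 rose and 2 fell in WT, where 42% passed (18% higher and 24% lower). Cyp26b1 fell by 2.64 ± 0.09 in BERKO (limma, adjusted p = 3.77e-15) and by 0.71 ± 0.09 in WT (adjusted p = 4.24e-06), and the steps differed by -1.94 ± 0.13 (adjusted p = 5.72e-09). Against the 95th percentile of the negative controls in MN, the BERKO mDPC level was at least 1.64-fold higher. Aldh1a2 rose by 0.83 ± 0.10 in WT and its steps differed by -0.99 ± 0.14 (adjusted p = 6.14e-05). Rarb fell by 0.55 ± 0.11 in WT, and its steps differed by 0.46 ± 0.145 (adjusted p = 0.043), a call lost in 11 of 17 alternatives. For the difference, 3 of 8 passed, where 12.5% of all tested genes did (7.31% higher and 5.15% lower). The median of the negative controls was itself lower at the later stages, 4.05 to 4.245 in mESC and 3.747 to 3.853 in MN, and its part in small stage changes was followed by centring the arrays on it, as one of the alternatives.

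The wider retinoid pathway was read from 48 other genes in 5 lists, of which 43 had a cluster and 34 were tested. Of these, 16 exceeded the 95th percentile of the negative controls in at least 2 arrays. One was Aldh1a1, a further retinal dehydrogenase, known in the ventral midbrain for a subset of dopaminergic neurons. Aldh1a1 averaged 3.81 in BERKO mESC, 7.98 in BERKO NPC, 13.74 in BERKO mDPC and 13.85 in BERKO MN, and 4.12, 7.73, 12.96 and 13.81 at the same stages in WT. From NPC to mDPC it rose by 5.76 ± 0.21 in BERKO (limma, adjusted p = 4.06e-14) and 5.23 ± 0.21 in WT (adjusted p = 2.9e-13). Its level in mDPC was higher in BERKO than in WT by 0.79 ± 0.21 (adjusted p = 0.0137). The near-identical Aldh1a7 differed there by 0.95 ± 0.24 (adjusted p = 0.0108), at least 1.07-fold against the 95th percentile of the negative controls, and probes may not separate the pair.

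Several of the differences below have 1 side or both below the 95th percentile of the negative controls, and are then given as measured differences in signal, with a bound against that percentile where 1 side exceeds it. Upstream of retinal, the retinol dehydrogenase Rdh10 averaged 6.56 in BERKO NPC and 7.55 in WT NPC, a difference of -0.999 ± 0.16 (limma, adjusted p = 0.000167). In mDPC it differed by -0.69 ± 0.16 (adjusted p = 0.00494). BERKO signals of Rdh10 were below the percentile at both stages, which makes the gene at least 1.16-fold lower in BERKO NPC and at least 1.3-fold lower in BERKO mDPC. From mDPC to MN, Rdh10 rose by 3.30 ± 0.14 in BERKO and 2.77 ± 0.16 in WT. Fabp5, a fatty acid binding protein that can also carry retinoic acid, averaged 8.03 in BERKO NPC and 6.91 in WT NPC, a difference of 1.13 ± 0.16 (adjusted p = 4.62e-05). In mDPC Fabp5 was higher in BERKO by 0.93 ± 0.16 (adjusted p = 0.000325). Against the percentile in WT, these come to at least 1.49-fold in NPC and at least 1.67-fold in mDPC. At the step from mESC to NPC the receptor gene Rarg fell by 2.17 ± 0.08 in BERKO and by 2.40 ± 0.08 in WT, and Rara fell by 1.64 ± 0.11 in BERKO and by 1.5 ± 0.11 in WT. Rarg never exceeded the percentile, and Rara did so in 2 arrays.

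Of the genes known as retinoic acid targets, the homeobox gene Meis1 and the orphan receptor gene Nr2f1 rose from mESC to NPC, Meis1 by 5.85 ± 0.08 in BERKO and 6.46 ± 0.08 in WT and Nr2f1 by 4.39 ± 0.12 in each. Stra8, a gene named for its induction by retinoic acid, fell by 3.13 ± 0.08 in BERKO and by 3.50 ± 0.08 in WT at that step, with signals below the percentile in every array. In untreated MN, Tgm2, a transglutaminase, read 8.28, 8.24 and 8.44 in BERKO, against 5.54 and 5.98 in WT, a difference of 2.56 ± 0.15 (limma, adjusted p = 1.67e-10). The WT signals were below the percentile, and against it Tgm2 was at least 2.75-fold higher in BERKO MN. Rarres2, which encodes chemerin, differed by 1.87 ± 0.20 (adjusted p = 6.99e-07), at least 1.22-fold on the same bound. Rarres1 differed by 1.54 ± 0.11 (adjusted p = 4.8e-09), with no array above the percentile. At this stage the mean of 4 ependymal markers was 7.90 to 8.52 in BERKO MN, against 6.26 to 6.31 in WT MN. Astrocyte markers averaged 11.67 to 11.69 in BERKO MN, against 10.98 to 11.1 in WT MN. Neuron markers averaged 7.61 to 7.86, against 8.27 to 9.96, and oligodendrocyte markers 7.71 to 8.29, against 8.4 to 8.97. The meningeal list also differed, as given above. The part of these cell types in the Tgm2, Rarres2 and Rarres1 differences was not tested. Other targets differed in either direction, over arrays with and without LY3201. Meis1 read 9.06 to 9.28 in BERKO mDPC, against 9.94 to 10.43 in WT mDPC. Meis2 read 8.71 to 8.81 in BERKO NPC, against 9.37 to 9.56 in WT NPC, and 8.2 to 8.41 in BERKO MN, against 8.66 to 8.95 in WT MN. Nr2f1 read 8.58 to 8.89 in BERKO MN, against 8.27 to 8.54 in WT MN. Of the 34 tested pathway genes, 0 were higher and 3 lower in untreated BERKO mESC than in WT mESC, where 1.68% of all tested genes were higher and 2.53% lower. In untreated NPC, 1 was higher and 4 lower in BERKO, where 10.6% of all were higher and 5.08% lower. In untreated mDPC, 4 were higher and 4 lower, where 8.51% of all were higher and 5.32% lower. In untreated MN, 11 were higher and 1 lower, where 13.5% of all were higher and 7.31% lower. The median differences of the pathway genes at these stages were 0.02, -0.06, 0.05 and 0.06, against 0.03, 0.03, 0.02 and 0.01 over all tested genes. In the 6 LY3201 comparisons 0 of 34 passed.

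**Figure D5:**
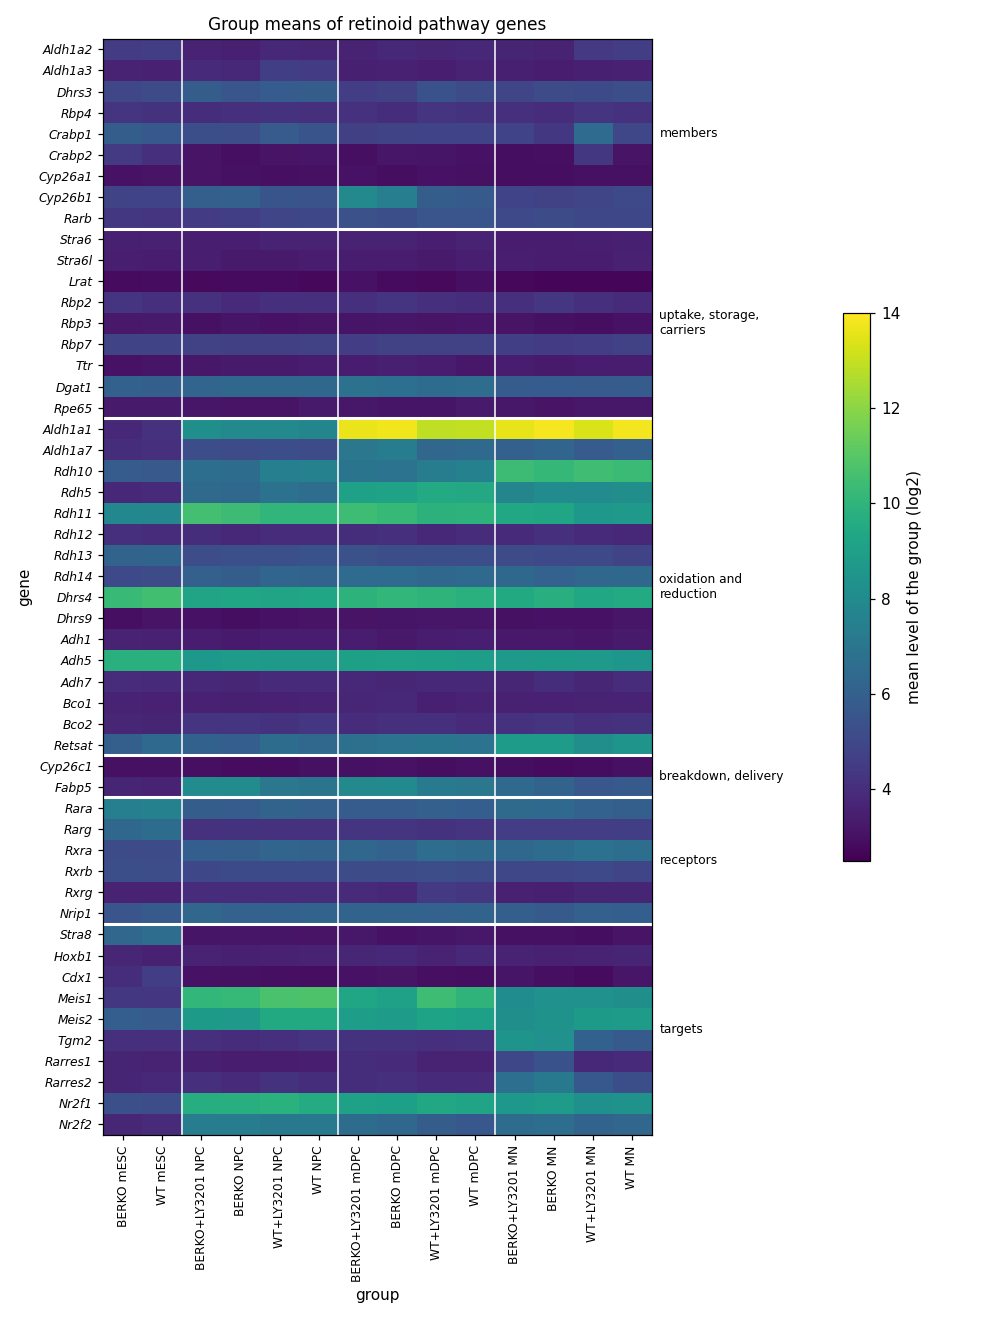
Group means (log2, colour) of the 9 genes and the 43 pathway genes with a cluster, in rows by role, over the 14 groups. The Aldh1a1 row turns from dark at mESC, at means of 3.81 in BERKO and 4.12 in WT, to bright at mDPC and MN, and the Cyp26b1 row is lightest in BERKO mDPC. Colours are read along a row, since levels of different genes are not compared.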

How the data were processed

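RNA of 29 mouse samples was measured on Clariom D arrays. The deposited values are log2 expression, 1 per transcript cluster and array, made by the authors with SST-RMA in Affymetrix Expression Console 1.4, per the labels. The submitters' processing notes also list RMA and Transcriptome Analysis Console. The genome build behind the clusters is not given in the sources used here. Of 72688 entries, 65956 were clusters, and 30604 of them had 1 gene symbol in the platform annotation, 2146 several and 33206 none. Repeated symbols were counted as 1, and 827 were updated by gene ID through RefSeq (GRCm38.p6). For 355 genes with several clusters the one with the highest mean was used.

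limma 3.58.1 in R 4.3.3 fitted a mean for each of 14 groups to 22063 genes (15 residual degrees of freedom, prior 3.303) and tested 25 contrasts, 2-sided, with Benjamini-Hochberg adjustment and a threshold of 0.05. The fit was tested on simulated data. Alternatives covered the filter, the normalization, the prior, the groups fitted, the clusters and each array left out. The number of arrays limits the precision. The 9 genes, the pathway lists and the marker lists were chosen with earlier results of these data known. Named are the 9 genes, up to 4 called pathway genes per list, the 3 genes most like a member above the 95th percentile of the negative controls in at least 2 arrays (Gm and Rik genes left out), and Esr1 and Esr2. Galnt14, Kif21b and St6gal2 came from that rule, while Car3, Slc17a6, Gfap, Nes, Foxc1 and Rdh11 were named after their values were seen. Replicates were numbered in accession order. Sequences are from the RefSeq promoter table (GRCm38.p6). Python 3.11.15 with pandas 2.3.3 and matplotlib 3.10.9 served for tables and figures.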

Additional observations from a re-analysis of the deposited data

Results flagged for a closer look

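The steps between stages of untreated cells differed between genotypes for 4 of the 8 tested genes, in 7 tests of the difference itself (BERKO step minus WT step, limma, adjusted over 22063 genes). From mESC to NPC, the difference was -0.74 for Aldh1a3 and 0.55 for Cyp26b1. From NPC to mDPC, it was 0.66 for Aldh1a3 and 1.08 for Cyp26b1. From mDPC to MN, it was -0.99 for Aldh1a2, -1.94 for Cyp26b1 and 0.46 for Rarb. The Cyp26b1 difference from mESC to NPC lost its call in 2 of 16 alternatives and that of Rarb in 11 of 17. Both Aldh1a3 differences are read as descriptions, since the gene passed the filter through its NPC arrays. Consecutive steps share the group between them, so the values for Aldh1a3 and Cyp26b1 are not independent of each other. No group held 4 or more arrays, and single arrays were not tested as outliers.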

How the results depend on the processing

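The results were recomputed under 8 alternatives and with each of the 29 arrays left out in turn. One of the 8, each array centred on the median of its negative controls, was chosen after seeing the data. No called change reversed. Of 46 called changes of the members, 34 held under every alternative run and 12 lost their call under at least 1. The 46 include the steps of Aldh1a3 into and out of NPC and of Crabp2 from mESC, which are read as descriptions. The number of members called changed by over 1.5 times as follows. For genotype in untreated MN it was 1 in place of 2 with no filter, with the filter at the 75th percentile, with quantile normalization, with all clusters tested, with arrays of a shared title number averaged and with centring on negative controls, and 1 to 2 with an array left out. For genotype in untreated mDPC it was 1 to 2 with an array left out. For genotype in MN with LY3201 it was 1 in place of 3 with the 75th percentile filter and with the compared groups fitted alone, and 1 to 3 with an array left out. For LY3201 in BERKO mDPC it was 1 in place of 0 with the 75th percentile filter. For LY3201 in WT MN, and for the difference of LY3201 effects in MN, it was 0 to 2 with an array left out, the 2 being Crabp1 and Crabp2 without WT+LY3201 MN replicate 1. With the 75th percentile filter it was also 3 in place of 6 for the WT step and 3 in place of 5 for the BERKO step from mESC to NPC, 3 in place of 5 for the BERKO step from NPC to mDPC and 1 in place of 2 for the difference of those steps, since 4 members were then tested. For the BERKO step from NPC to mDPC it was also 3 with all clusters tested and 3 to 5 with an array left out, and for the difference of steps from mESC to NPC 1 to 2. Other than for that filter, and for the Crabp genes, the cause was not tested.

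The Cyp26b1 difference between genotypes in untreated MN lost its call in 11 of 13 alternatives, the Crabp2 step from mESC to NPC in WT in 8 of 11, and the Rarb difference of steps from mDPC to MN in 11 of 17 alternatives, with an adjusted p of up to 0.24 with the compared groups fitted alone. In BERKO, the steps of Aldh1a2 and Aldh1a3 from NPC to mDPC were small, and lost their calls in 9 and 6 of 11 alternatives. Centring on the negative controls moved the median of all genes at that step to 0.22, against 0.04 as deposited, and Aldh1a3 to -0.06. No paired analysis was possible because no 2 groups share more than 1 number in their titles. The number 10 stands on 1 BERKO+LY3201 MN array and 1 WT+LY3201 MN array, and no other number recurs between groups. Most levels of the 9 genes lie below the 95th percentile of the negative controls, where differences in signal may understate changes in RNA.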

Other observations

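Over the 14 group means, Crabp1 and Crabp2 had a Pearson r of 0.79, as had Aldh1a2 and Crabp2, and Aldh1a3 and Dhrs3 had 0.76. Cyp26b1 and Rarb had 0.42. These describe means that share stages and the single WT+LY3201 MN array with high Crabp1 and Crabp2, and carry no test. Esr1 read 3.58 to 3.80 in the BERKO arrays of MN, against 3.84 to 4.03 in the WT arrays.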
